A study of Homo sapiens with 9 samples.

Results

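Collagen chain, laminin chain and fibrillin genes, together with the fibronectin gene FN1, were followed in the human line NCCIT, an embryonal carcinoma whose cells resemble those of the early embryo. The genes were taken by symbol alone: every collagen alpha chain, every laminin alpha, beta or gamma chain, the 3 fibrillins and FN1, each read from a transcript cluster that carried only its own symbol. This gave 57 genes of the 18417 that had such a cluster. Of these, 11 code for fibrillar collagens, 18 for basement membrane chains (8 collagens of types IV, XV and XVIII and 10 laminin chains) and 28 for other collagens, fibrillins and fibronectin. Members without such a cluster were not analysed here.

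Expression was measured on 9 arrays, 1 for undifferentiated cells and 8 for embryoid bodies, the floating aggregates in which such cells begin to differentiate. The embryoid bodies were kept without addition, with 50 mM ethanol, with FA or with both, and 1 array was made of each at day 7 and at day 21. Ethanol was present from the plating of the cells in non-adherent dishes and the medium was renewed daily, per the labels' protocol, while what FA stands for, and its dose, is stated in no source used here. That protocol gives a culture of 7 days only, and it does not say whether ethanol was present up to day 21, a limit on the day 21 ethanol values. All 9 arrays came from this line, no condition was repeated, and the labels do not say whether the arrays came from separate cultures. The residual of an additive model over all arrays therefore stood in for replicate error, and p-values cover only the spread among these 9 arrays, which may be technical in part.

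Collagens are trimers of alpha chains. Fibrillar collagens assemble into the cross-linked fibres of connective tissue, whereas type IV collagen forms the sheet of the basement membrane together with laminins, which are trimers of an alpha, a beta and a gamma chain bound by integrins on the cell surface. Fibrillins form microfibrils that hold latent growth factors, and fibronectin is the fibril-forming glycoprotein laid down early in many embryonic tissues. In embryoid bodies a basement membrane normally forms beneath the outer endoderm-like layer.

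The labelled cell type was checked against its markers. The mean log2 level of the 7 of 10 pluripotency markers with a cluster of their own was 11.76 on the undifferentiated array, 11.56 to 11.64 at day 7 and 10.06 to 10.30 at day 21, and all 7 fell from day 7 to day 21. Over this interval 26.3% of all genes tested were higher and 22.6% lower. Of 5 neural markers 3 rose over the same interval, from a list mean of 7.67 to 7.70 at day 7 to 8.95 to 9.10 at day 21. Of 7 mesenchymal markers tested, PDGFRA and ZEB1 rose and THY1, VIM and TWIST2 fell. The mean over all 12 mesenchymal markers with a cluster, dim ones included, was at most 8.06 at day 7 and 8.16 to 8.22 at day 21. Of 6 endoderm markers tested 1 rose, GATA6, and 1 fell, SPINK1. None of 6 endothelial markers passed the filter on dim genes, and their mean lay between 6.46 and 6.66 on every array. On whole-tissue RNA a change in the number of cells of a type and a change in RNA per cell cannot be told apart. The part of these lineages in the matrix results was not tested. The day 7 array with ethanol and without FA stood apart, with correlations of 0.990 to 0.991 with the other day 7 arrays, against 0.996 to 0.997 among those.

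A few matrix genes accounted for the large differences. A gene was tested when its highest value exceeded the median of all values in the table, 7.71 on the log2 scale, and 38 of the 57 genes did so: 8 fibrillar, 13 basement membrane and 17 other. The difference between a gene's highest and lowest array had a median of 0.52 log2 units among these 38 and exceeded 1 in 7 of them. Among the 19 dimmer genes it ran from 0.22 to 0.62, with a median of 0.40. FBN2, COL5A2 and FBN1 exceeded the filter value of 7.71 on day 21 arrays only. COL4A6 exceeded it on all arrays but the undifferentiated one, and FBN3 only on the day 7 array without addition. COL1A2, COL11A1 and COL9A1 lay just below the filter, with highest values of 7.56, 7.66 and 7.69, and FBN3, COL4A6 and COL22A1 lay just above it, at 7.73, 7.86 and 7.89. The other dim genes were COL24A1 among the fibrillar collagens, COL4A3, COL4A4, COL15A1, LAMB3 and LAMB4 in the basement membrane class, and COL6A3, COL6A5, COL6A6, COL8A1, COL10A1, COL12A1, COL19A1, COL21A1, COL25A1 and COL28A1 in the third class.

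**Figure D1:**
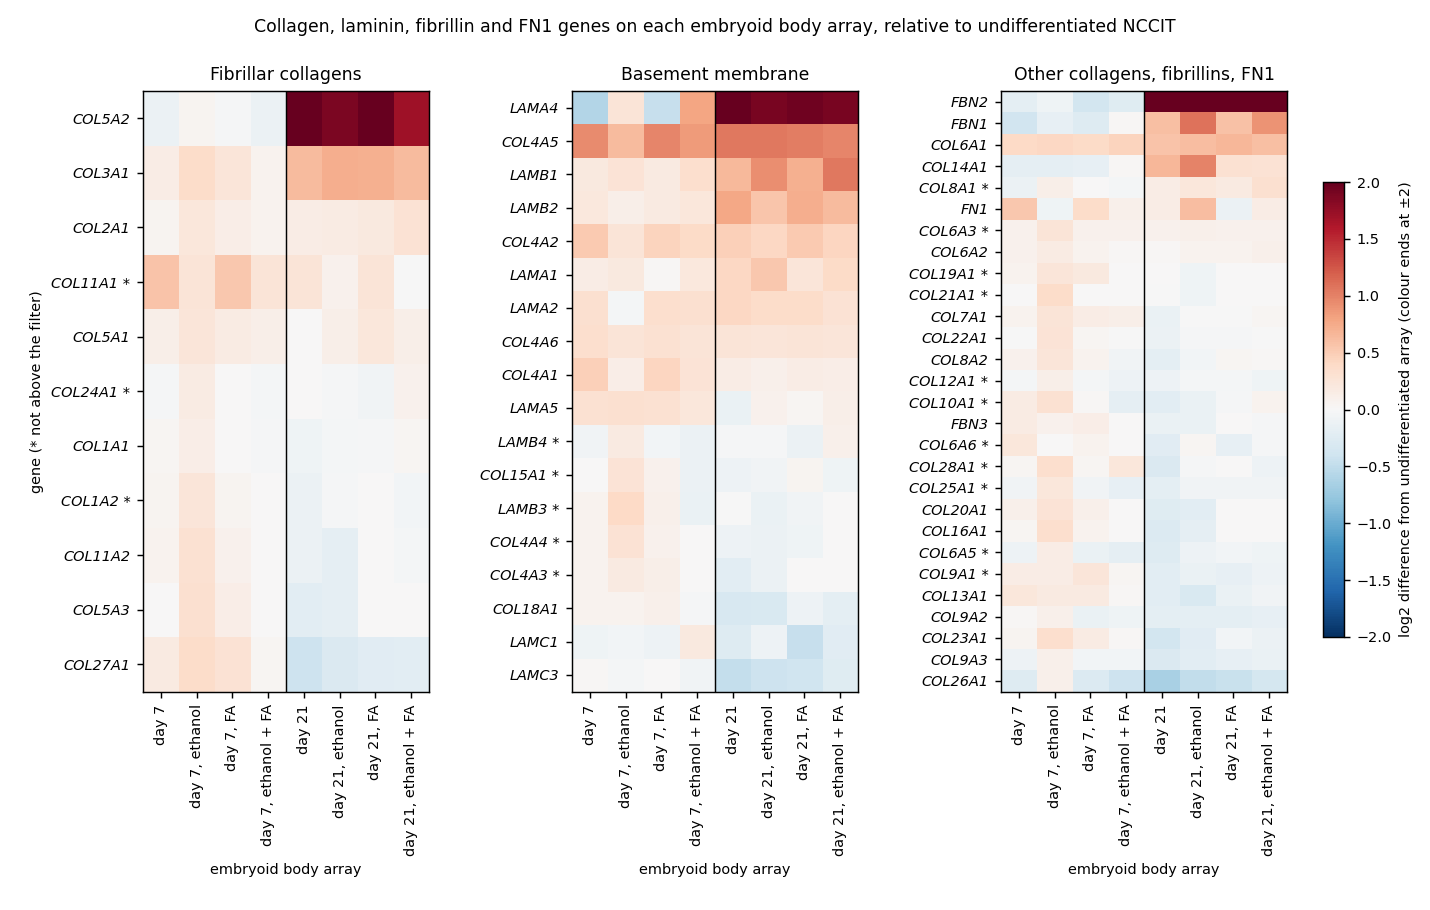
Log2 difference of each of the 57 genes from the undifferentiated array (colour; the scale ends at 2 in either direction) on the 8 embryoid body arrays, by class; rows are sorted by the mean of the day 21 arrays and asterisks mark genes below the filter. FBN2, COL5A2 and LAMA4 are the strongly red rows at day 21, and the type IV collagen genes COL4A5, COL4A2 and COL4A1 are already in paler red at day 7.

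Of the matrix genes that passed the test at day 7, 4 of 5 code for basement membrane collagen. From undifferentiated cells to day 7, 5 of the 38 genes tested were higher and 0 lower, where 20.6% of all genes tested changed (6.68% higher and 13.9% lower). By class these were 4 of 13 basement membrane genes, 1 of 17 others and 0 of 8 fibrillar collagens. The 4 were the type IV chains COL4A1, COL4A2, COL4A5 and COL4A6, and the other was COL6A1, a chain of the beaded microfilament collagen VI. Over all 57 genes without the filter the median difference was 0.085, against -0.009 over all genes, and again 5 were higher, with the cartilage fibril gene COL11A1 in place of COL4A1, against 11.7% of all genes changed. With each array centred on its own median, 3 were higher (COL4A2, COL4A5 and COL6A1) and 1 lower, FBN1. Under that centring 553 of the 12254 genes tested were higher and 2498 lower.

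The genes of type IV collagen lie in head-to-head pairs, and the windows around their starts show how close the members of a pair are. RefSeq windows of 300 bases (250 before and 50 after the annotated start, GRCh38.p14) were matched for 43 of the 57 genes. The starts of COL4A1 and COL4A2 lay 127 bases apart on chromosome 13, so that their windows share 226 bases, and those of COL4A5 and COL4A6 lay 380 bases apart on chromosome X, with 121 bases shared. The windows of these 4 genes are printed because both pairs were among the genes that rose by day 7, and that of FBN2 because it had the largest difference of all members. Each is written on its gene's own strand. Capitals mark matches, on either strand, to any of the motifs searched. The CCAAT box was searched by those 5 letters alone. GGGCGG stood for the GC box of SP1-type factors. For the TATA box the letters were TATAAA. The retinoid receptor site was read as AGGTCA, and for the core bound by MEIS factors the search used TGACAG. The coordinates are chr13:110307108-110307407 (minus strand) for COL4A1, chr13:110307034-110307333 (plus strand) for COL4A2, chrX:108439588-108439887 (plus strand) for COL4A5, chrX:108439409-108439708 (minus strand) for COL4A6 and chr5:128538196-128538495 (minus strand) for FBN2.
COL4A1: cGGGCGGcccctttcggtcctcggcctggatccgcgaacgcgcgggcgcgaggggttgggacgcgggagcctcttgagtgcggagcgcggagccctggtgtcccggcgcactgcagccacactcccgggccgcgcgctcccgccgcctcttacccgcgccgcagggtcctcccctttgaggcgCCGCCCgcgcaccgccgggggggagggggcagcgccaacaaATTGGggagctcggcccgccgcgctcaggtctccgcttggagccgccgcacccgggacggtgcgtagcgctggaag
COL4A2: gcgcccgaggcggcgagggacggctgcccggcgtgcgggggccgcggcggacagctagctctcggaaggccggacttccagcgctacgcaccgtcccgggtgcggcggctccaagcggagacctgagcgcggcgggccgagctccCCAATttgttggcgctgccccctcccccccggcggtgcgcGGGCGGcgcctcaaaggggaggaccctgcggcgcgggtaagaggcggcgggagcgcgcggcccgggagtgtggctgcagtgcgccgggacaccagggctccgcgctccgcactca
COL4A5: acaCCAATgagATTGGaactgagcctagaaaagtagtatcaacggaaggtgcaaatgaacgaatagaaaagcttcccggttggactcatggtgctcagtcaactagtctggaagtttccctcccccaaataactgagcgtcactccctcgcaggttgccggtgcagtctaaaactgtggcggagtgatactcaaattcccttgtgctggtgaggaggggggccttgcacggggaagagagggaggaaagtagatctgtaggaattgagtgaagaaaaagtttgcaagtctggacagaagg
COL4A6: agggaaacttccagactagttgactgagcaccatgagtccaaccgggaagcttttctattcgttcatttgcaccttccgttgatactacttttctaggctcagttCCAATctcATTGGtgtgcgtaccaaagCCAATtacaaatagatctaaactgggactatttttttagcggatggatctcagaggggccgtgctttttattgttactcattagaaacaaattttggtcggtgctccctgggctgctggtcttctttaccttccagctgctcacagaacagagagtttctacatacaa
FBN2: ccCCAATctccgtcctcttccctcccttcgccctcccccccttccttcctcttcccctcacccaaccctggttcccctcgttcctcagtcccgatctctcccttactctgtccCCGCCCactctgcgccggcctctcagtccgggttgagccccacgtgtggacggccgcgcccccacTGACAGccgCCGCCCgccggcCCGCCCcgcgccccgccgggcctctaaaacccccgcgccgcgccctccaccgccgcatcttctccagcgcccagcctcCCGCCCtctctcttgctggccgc

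COL4A1 and COL4A2 hold the same CCAAT box and the same GC box, read on opposite strands, and COL4A1 has a further GC box at the far end of its window. COL4A5 and COL4A6 share 2 CCAAT matches, COL4A6 holds 1 more, and neither window has a GC box. FBN2 holds 4 GC boxes, 1 CCAAT box and 1 MEIS core. Of 35116 RefSeq windows 34.6% held a CCAAT box, 45% a GC box, 11.5% a TATA box, 13.8% a retinoid receptor site and 15.8% a MEIS core. Over the 58 windows of the matched matrix genes the shares were 29.3%, 60.3%, 12.1%, 3.45% and 15.5%. These matches describe letters in a window and were not compared with the expression values by a test.

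For each gene below, log2 levels are given for the undifferentiated array, then for the arrays without addition, with ethanol, with FA and with both, at day 7 and then at day 21. COL4A5 read 7.98 in undifferentiated cells, 8.93, 8.62, 8.96 and 8.84 at day 7 and 9.04, 9.03, 9.01 and 8.96 at day 21. Every embryoid body array lay above the undifferentiated array, and the day 7 array with ethanol alone was the lowest of the 8. The log2 difference was 0.90 ± 0.12 (SE of the fit) to day 7 (limma, adjusted p = 0.00537) and 1.07 ± 0.12 to day 21 (adjusted p = 0.000408). Its neighbour COL4A6 moved less, from 7.53 in undifferentiated cells to between 7.78 and 7.86 at day 7 and 7.77 to 7.78 at day 21. That was a rise of 0.31 ± 0.08 to day 7 (limma, adjusted p = 0.0299) and 0.27 ± 0.08 to day 21 (adjusted p = 0.0284), and the day 21 call was lost in 7 of 14 alternative analyses.

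COL4A2 read 8.27 in undifferentiated cells, 8.79, 8.53, 8.72 and 8.66 at day 7 and 8.75, 8.68, 8.79 and 8.70 at day 21. The level was reached by day 7 and held, with a rise of 0.45 ± 0.09 to day 7 (limma, adjusted p = 0.0145) and 0.51 ± 0.09 to day 21 (adjusted p = 0.00386). COL4A1 read 7.81 in undifferentiated cells, 8.29, 7.95, 8.24 and 8.09 at day 7 and 7.97, 7.91, 7.96 and 7.95 at day 21. It was 0.38 ± 0.11 higher at day 7 (limma, adjusted p = 0.0416) and fell by 0.19 ± 0.06 from day 7 to day 21 (adjusted p = 0.0324), so that at day 21 its difference from undifferentiated cells was 0.19 ± 0.11 (adjusted p = 0.21). COL4A2 differed by 0.06 ± 0.05 between the days (adjusted p = 0.38), and the difference between the partners was not tested. The fall of COL4A1 lost its call in 6 of 16 alternative analyses. Both COL4A1 and COL4A6 lost their day 7 call in 8 of 14 alternative analyses, and when the day 7 array without addition was left out COL4A5 alone of the 5 genes remained (0.84, adjusted p = 0.0409). Of the remaining collagens of this class COL18A1, which yields endostatin, lay between 8.81 and 8.94 at day 7 and between 8.52 and 8.73 at day 21 and fell by 0.29 ± 0.06 (limma, adjusted p = 0.00454), while COL4A3, COL4A4 and COL15A1 stayed below the filter.

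By day 21 the differences were larger and covered all classes. Relative to undifferentiated cells 12 of the 38 genes were higher and 1 lower, where 37.8% of all genes tested changed (16.6% higher and 21.2% lower). They were 7 higher and 1 lower of 13 basement membrane genes, 2 higher of 8 fibrillar collagens and 3 higher of 17 others. Without the filter 13 of the 57 genes were higher and 1 lower, with COL11A1 added, where 26.2% of all genes changed, and their median difference was -0.035, against -0.056 over all genes. Between day 7 and day 21, averaged over the 4 pairs of arrays that share ethanol and FA, 10 genes rose and 12 fell, where 48.9% of all genes tested changed (26.3% higher and 22.6% lower). The share of members that changed, 22 of 38, is close to that background. With each array centred on its own median the split was 11 higher and 6 lower, and over all genes it went from 3224 higher and 2771 lower to 3841 and 2106. The calls of small decreases thus depended on the scaling, while all 10 increases were kept under the centring. Without the filter 11 of the 57 genes rose and 13 fell, where 36.3% of all genes changed, with a median of -0.115 against -0.05 over all genes. COL8A1 joined the genes that rose, COL9A1, COL11A1 and COL28A1 joined those that fell, and COL9A2 and COL9A3 dropped out.

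**Figure D2:**
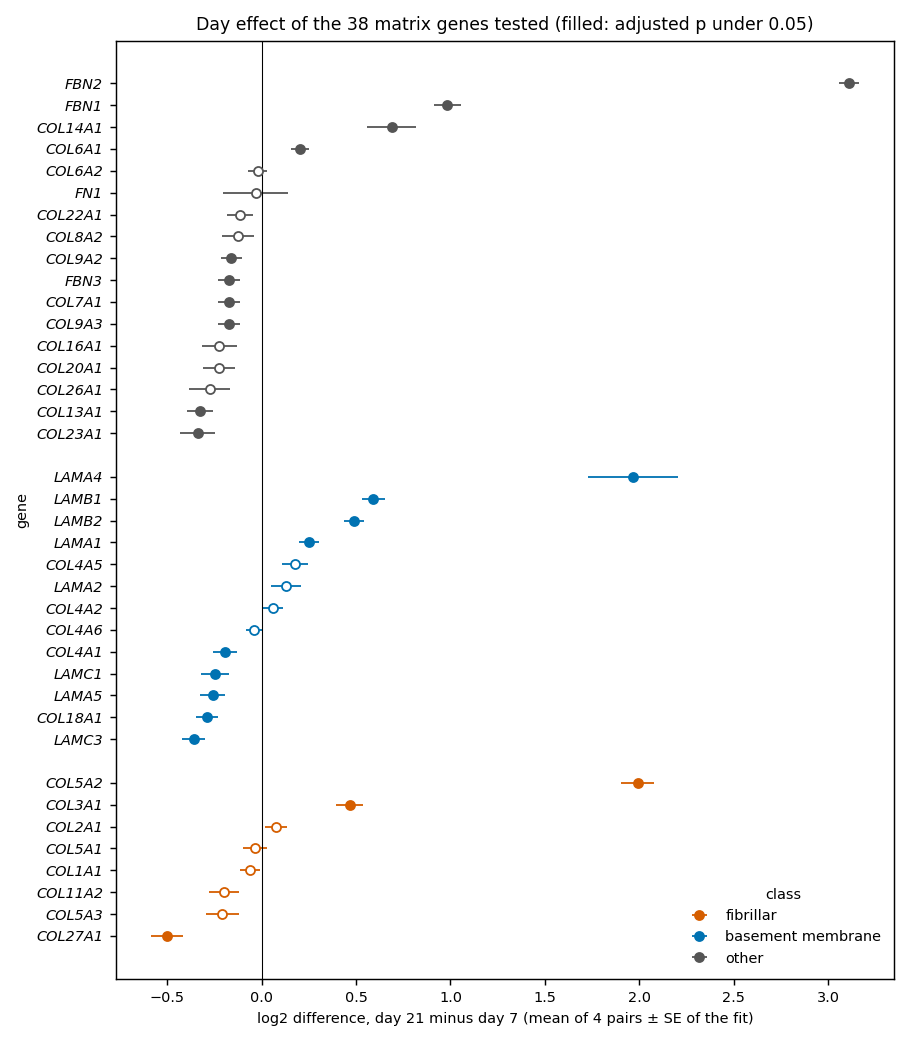
Log2 difference between day 21 and day 7 (mean of 4 pairs, bars are the SE of the fit) for the 38 genes tested, by class, with filled points for adjusted p under 0.05. FBN2 at 3.11, COL5A2 at 1.99 and LAMA4 at 1.97 stand far to the right, while no decrease goes beyond -0.50 (COL27A1).

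Among the laminins tested, the alpha 1 and alpha 4 chains and both beta chains rose between the days, and the alpha 5 chain and both gamma chains fell. LAMA4 codes for the alpha chain found in basement membranes of vessels and other mesenchymal tissues. It read 7.96 in undifferentiated cells, 7.38, 8.22, 7.49 and 8.75 at day 7 and 10.09, 9.85, 9.90 and 9.85 at day 21. All day 21 arrays lay above all others, and at day 7 both ethanol arrays lay above both arrays without ethanol. The rise from day 7 to day 21 was 1.97 ± 0.24, or 3.91-fold (limma, adjusted p = 0.000295). That rise was at least 2-fold in each of the 4 pairs, from 1.11 in the pair with ethanol and FA to 2.72 in the pair without addition. From undifferentiated cells to day 21 the fit gave 1.69 ± 0.41 (adjusted p = 0.0132). Without the day 21 array without addition it gave 1.23 (adjusted p = 0.0539). The fitted 1.69 lies below the difference of every day 21 array from the undifferentiated array, which was 2.14 without addition. The additive model applies 1 ethanol effect to both days, whereas the ethanol differences of LAMA4 turned between the days.

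LAMB1, the beta chain of the early embryonic laminin trimer, read 10.08 in undifferentiated cells, 10.28, 10.36, 10.26 and 10.42 at day 7 and 10.73, 11.01, 10.79 and 11.14 at day 21. The 3 stages did not overlap, and the day effect was 0.59 ± 0.06 (limma, adjusted p = 0.000108). LAMB2, the beta chain of later basement membranes, lay between 8.23 and 8.34 at day 7 and between 8.67 and 8.88 at day 21, after 8.11 in undifferentiated cells, and rose by 0.49 ± 0.05 between the days (limma, adjusted p = 0.000201). LAMA1, the alpha chain of the early embryonic trimer, read 8.83 in undifferentiated cells and lay between 8.86 and 9.04 at day 7 and between 9.07 and 9.37 at day 21, with a day effect of 0.25 ± 0.05 (limma, adjusted p = 0.00473). The gamma chain of that trimer, LAMC1, went the other way. It read 10.90 in undifferentiated cells, 10.81, 10.85, 10.79 and 11.09 at day 7 and 10.65, 10.80, 10.43 and 10.67 at day 21, a fall of 0.25 ± 0.08 in which the days overlapped by the highest day 21 array (limma, adjusted p = 0.0264), and the call was lost in 5 of 16 alternatives.

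LAMC3, a gamma chain described in nerve and retina, read 8.23 in undifferentiated cells, 8.25, 8.19, 8.24 and 8.16 at day 7 and 7.75, 7.82, 7.83 and 7.99 at day 21. It fell by 0.36 ± 0.06 between the days (limma, adjusted p = 0.00183) and by 0.42 ± 0.11 from undifferentiated cells to day 21 (adjusted p = 0.0161), the only member to fall in that comparison. Without the day 21 array without addition the latter was -0.36 (adjusted p = 0.0731). LAMA5, the widespread alpha chain of mature epithelia, lay between 8.84 and 8.94 at day 7 and between 8.49 and 8.74 at day 21, and fell by 0.26 ± 0.06 (limma, adjusted p = 0.0112; 0.0511 without the day 7 array with FA alone). LAMA2, the alpha chain of muscle and nerve basement membranes, ranged from 9.27 to 9.73 over the embryoid body arrays and passed none of the 3 tests, with 0.40 ± 0.14 to day 21 (limma, adjusted p = 0.0543).

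Of the fibrillar collagens COL5A2 and COL3A1 rose between the days, COL27A1 fell and 5 tested genes passed no test. COL5A2, a chain of the collagen V that starts and limits the growth of collagen fibrils, read 6.94 in undifferentiated cells, 6.82, 7.00, 6.91 and 6.83 at day 7 and 9.14, 8.82, 8.93 and 8.64 at day 21. The day 7 arrays surrounded the undifferentiated value, and every day 21 array lay above every other array. The day effect was 1.99 ± 0.09, or 3.98-fold (limma, adjusted p = 1.26e-06). COL3A1, the collagen III gene of soft connective tissue, read 7.42, then 7.56, 7.78, 7.67 and 7.49, then 8.04, 8.14, 8.14 and 8.04, and rose by 0.47 ± 0.07 between the days (limma, adjusted p = 0.00108).

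COL1A1, the main collagen of bone and skin, read 8.36 in undifferentiated cells, 8.34 to 8.50 at day 7 and 8.28 to 8.40 at day 21, with a day difference of -0.06 ± 0.05 (limma, adjusted p = 0.352), and its partner chain COL1A2 stayed below the filter at 7.20 to 7.56. COL5A1, which pairs with COL5A2 in collagen V, lay between 7.92 and 8.16 on all arrays, with a day difference of -0.04 ± 0.06 (adjusted p = 0.634). COL2A1, the cartilage collagen, lay between 7.85 and 8.14 (0.08 ± 0.06, adjusted p = 0.301), while COL5A3 and COL11A2 differed by -0.21 ± 0.09 and -0.20 ± 0.08 (adjusted p = 0.0847 and 0.0664). COL27A1, a fibrillar collagen of developing cartilage, was the only tested member of the class to fall: it read 8.39 in undifferentiated cells, 8.57, 8.76, 8.68 and 8.43 at day 7 and 7.99, 8.10, 8.17 and 8.18 at day 21, a fall of 0.50 ± 0.08 (limma, adjusted p = 0.00177). In the fit without a filter COL11A1 rose by 0.55 ± 0.09 to day 7 and fell by 0.26 ± 0.05 from day 7 to day 21 (limma, adjusted p = 0.0106 and 0.00476); its values were 7.08 in undifferentiated cells, 7.33 to 7.66 at day 7 and 7.08 to 7.33 at day 21.

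FBN2, the fibrillin of embryonic microfibrils, showed the largest difference of any member. Its log2 level was 6.94 in undifferentiated cells, 6.75, 6.86, 6.57 and 6.69 at day 7 and 9.87, 9.87, 9.80 and 9.78 at day 21. The day 7 arrays were all below the undifferentiated array, by an amount that did not pass the test (-0.18 ± 0.09, limma, adjusted p = 0.19), and the day 21 arrays lay close together. From day 7 to day 21 it rose by 3.11 ± 0.05, or 8.65-fold (limma, adjusted p = 2.33e-08). FBN1, the fibrillin of later and adult tissue, read 7.43 in undifferentiated cells, 7.05, 7.26, 7.18 and 7.46 at day 7 and 8.03, 8.52, 8.01 and 8.32 at day 21. It rose by 0.98 ± 0.07, or 1.98-fold (limma, adjusted p = 2.24e-05), without overlap between the days. FBN2, FBN1 and COL5A2 were tested only because of their day 21 values, which is the direction of their rise. Their folds start from levels below the filter. In the fit without a filter they also passed as higher at day 21, against day 7 and against undifferentiated cells. FBN3, the third fibrillin, stayed between 7.43 and 7.73 and fell by 0.17 ± 0.06 (adjusted p = 0.0368), a call lost in 9 of 15 alternatives.

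FN1 read 10.10 in undifferentiated cells, 10.64, 10.01, 10.46 and 10.20 at day 7 and 10.24, 10.71, 9.99 and 10.24 at day 21. The days overlapped fully, and the day difference was -0.03 ± 0.17 (limma, adjusted p = 0.883). The highest day 7 value came from the array without addition and the highest day 21 value from the array with ethanol alone.

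**Figure D3:**
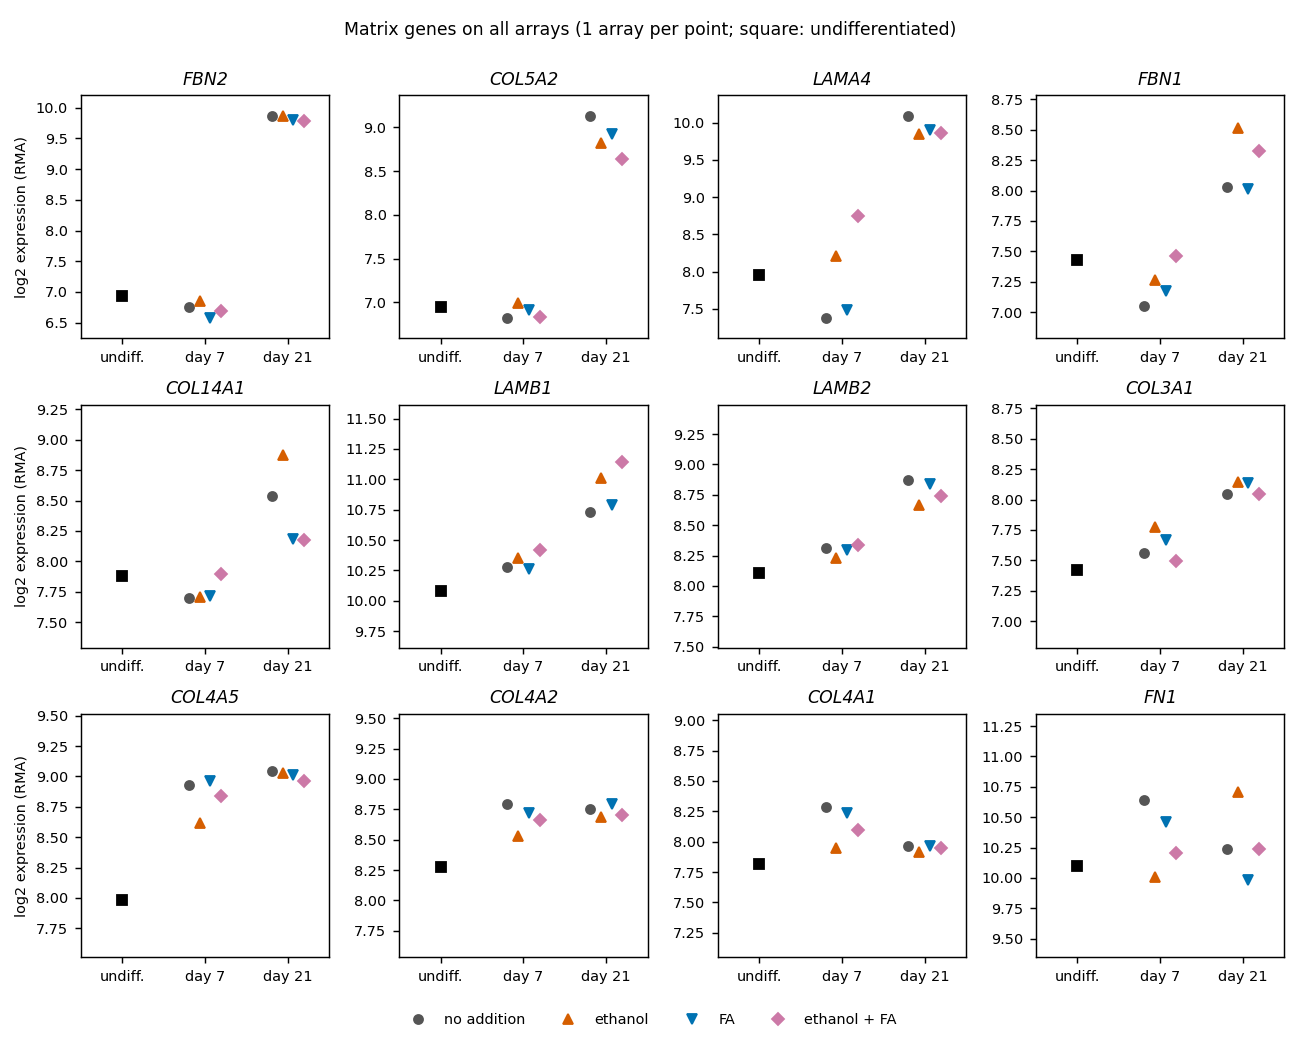
Log2 level of 12 matrix genes on the 9 arrays, with 1 point per array: squares for undifferentiated cells, then day 7 and day 21 by treatment. FBN2 goes from 6.57 to 6.86 at day 7 to 9.78 to 9.87 at day 21, COL4A5 is already raised at day 7, the day 7 points of LAMA4 split by ethanol, and FN1 shows no order by day.

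In the remaining classes the increases were COL14A1 and COL6A1. COL14A1, a collagen that binds to the surface of fibrils, read 7.88 in undifferentiated cells, 7.70, 7.71, 7.71 and 7.90 at day 7 and 8.54, 8.88, 8.18 and 8.17 at day 21. It rose by 0.69 ± 0.13 between the days (limma, adjusted p = 0.00316), and at day 21 both FA arrays lay below both others. COL6A1 read 8.91 in undifferentiated cells, 9.31, 9.32, 9.29 and 9.35 at day 7 and 9.47, 9.53, 9.58 and 9.51 at day 21, without overlap between the stages. It rose by 0.39 ± 0.08 to day 7 (limma, adjusted p = 0.016) and by a further 0.20 ± 0.05 to day 21 (adjusted p = 0.00877; 0.0502 without the day 7 array with FA alone). Its partner chain COL6A2 lay between 9.06 and 9.22 throughout and passed no test.

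Decreases from day 7 to day 21 were small. The membrane-spanning collagens COL23A1 and COL13A1 fell by 0.34 ± 0.09 and 0.33 ± 0.07 (limma, adjusted p = 0.0177 and 0.00531), the former losing its call in 3 of 16 alternatives. COL7A1, which anchors epithelia to the dermis, COL9A3 and COL9A2, chains of the cartilage collagen IX, fell by 0.17, 0.17 and 0.16 (adjusted p from 0.036 to 0.0417), and each of these 3 calls was lost in at least 9 of 16 alternatives. In total 25 of the 38 genes passed at least 1 of the 3 tests of differentiation and day. The share of all genes tested that did so was not computed, and 48.9% of them passed the test of day. The 13 members that passed none were 5 fibrillar collagens, LAMA2 in the basement membrane class and 7 others, namely FN1, COL6A2, COL8A2, COL16A1, COL20A1, COL22A1 and COL26A1. The last 5 ranged over the arrays from 7.60 to 8.03, from 7.76 to 8.36, from 7.68 to 8.20, from 7.51 to 7.89 and from 8.16 to 8.93, and each was highest on the day 7 array with ethanol and without FA. Only FBN2, COL5A2 and LAMA4 differed at least 2-fold between the days in every pair. The share of all genes that did so in every pair was not computed. Counted in single pairs, 3 of the 38 genes tested were at least 2-fold apart without addition, 5 with ethanol, 3 with FA and 3 with both. Of the 19 dimmer genes 0 were so in any pair. Of all genes tested 6.21% were so in the pair without addition, 5.23% with ethanol, 5.61% with FA and 4.66% with both. FBN1 and COL14A1 were at least 2-fold apart only in the pair with ethanol and without FA, at log2 differences of 1.25 and 1.17.

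Ethanol was the treatment for which the series was made, and no matrix gene passed its test. The effect was averaged over the 4 pairs of arrays matched for day and FA. In this average 0.685% of all genes tested changed, while 0 of the 38 matrix genes did (limma). At an unadjusted p under 0.05 there were 4, all higher, where 17.5% of all genes tested reached this. Without the filter the median of the 57 genes was 0.033 and that of all genes 0.026. A difference of the same sign in all 4 pairs occurred upward in 5 and downward in 5 of the 38, each 13.2%, against 18.5% and 11% of all genes tested.

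The tested genes with positive differences in all 4 pairs were FBN1, COL9A3 and the 3 chains of the early embryonic laminin trimer. FBN1 had pair differences of 0.21 and 0.28 at day 7 (without and with FA) and 0.48 and 0.31 at day 21, with a mean of 0.32 ± 0.07 (limma, adjusted p = 0.099). Leaving out the day 7 array with ethanol and without FA, which stood apart, gave 0.38 ± 0.06 (adjusted p = 0.038; 0.038 to 1.00 over its 16 alternatives). LAMB1 had 0.08 and 0.16 at day 7 and 0.28 and 0.35 at day 21, with a mean of 0.22 ± 0.06 (adjusted p = 0.139). LAMC1 had a mean of 0.18 ± 0.08 and LAMA1 of 0.12 ± 0.05 (limma, adjusted p = 0.271 and 0.267). These 4 means lie within 1.25-fold, and apart from that refit of FBN1 none passed.

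The tested genes with negative differences in all 4 pairs were all in the basement membrane class: COL4A1, COL4A2, COL4A5, COL4A6 and LAMA2. COL4A1 had pair differences of -0.34 and -0.14 at day 7 and -0.05 and -0.02 at day 21, with a mean of -0.14 ± 0.06 (limma, adjusted p = 0.302). COL4A5 had -0.31 and -0.13, then -0.01 and -0.04, with a mean of -0.12 ± 0.07 (adjusted p = 0.394), and COL4A2 had a mean of -0.12 ± 0.05 (adjusted p = 0.29). LAMA2 had -0.36 and -0.02, then -0.05 and -0.09, with a mean of -0.13 ± 0.08 (adjusted p = 0.447). In each of COL4A1, COL4A5 and LAMA2 the largest difference was the day 7 pair without FA. Leaving out its ethanol array moved the means to -0.08, -0.05 and -0.04. The dim fibrillar gene COL11A1 was also lower in 4 of 4 pairs, with a mean of -0.26 ± 0.05 in the fit without a filter (limma, adjusted p = 0.0939).

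**Figure D4:**
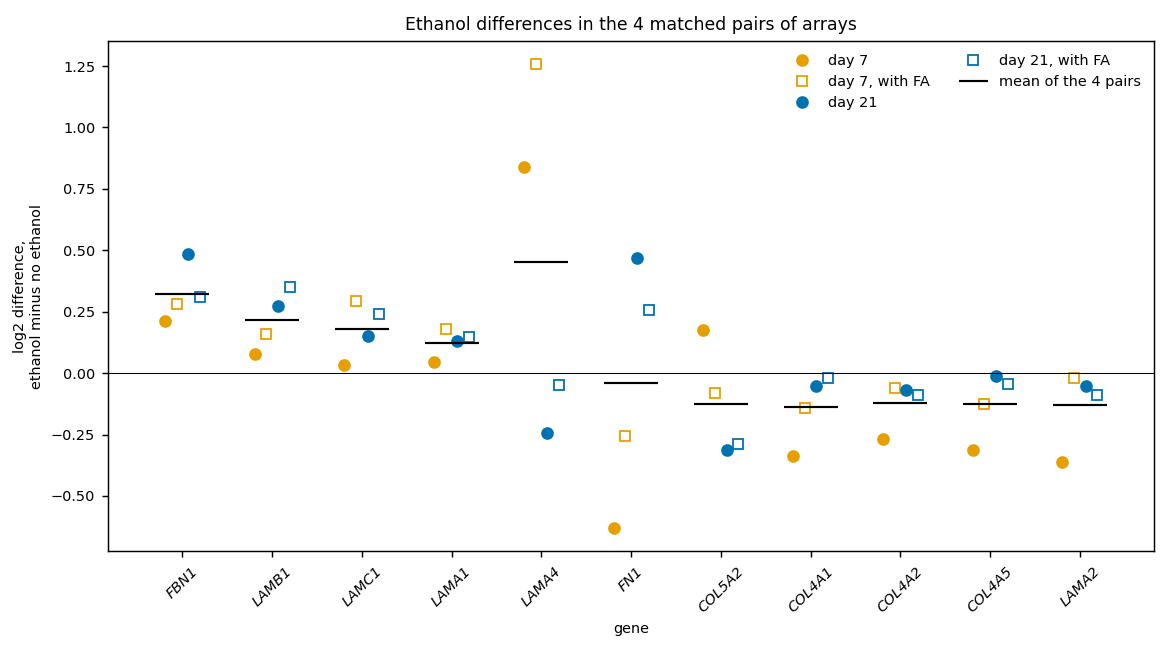
Log2 difference between arrays with and without ethanol in each of the 4 matched pairs (points; circles without FA, squares with FA) for 11 genes, with lines at their means. The points of FBN1, LAMB1, LAMC1 and LAMA1 are all above 0 and those of COL4A1, COL4A2, COL4A5 and LAMA2 all below, while LAMA4 and FN1 lie on opposite sides of 0 at the different days.

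LAMA4 and FN1 had ethanol differences that turned between the days. LAMA4 differed by 0.84 and 1.26 at day 7 and by -0.24 and -0.05 at day 21. The day 7 pair with FA was the only ethanol pair in which a member was at least 2-fold apart, where 0.0571% of all genes tested were. FN1 differed by -0.63 and -0.26 at day 7 and by 0.47 and 0.26 at day 21. The test of the interaction of ethanol with day was passed by 0 of the 38 genes, where 0.00816% of all genes tested passed. The same test gave an unadjusted p under 0.05 for 3 of the 38, where 7.48% of all genes tested reached this. It gave -1.20 ± 0.22 for LAMA4 (limma, adjusted p = 0.225), 0.81 ± 0.21 for FN1 (adjusted p = 0.393) and -0.35 ± 0.13 for COL5A2 (adjusted p = 0.609). Refitted without the day 7 array with ethanol alone the LAMA4 interaction was -1.47. Without the day 7 array with both additions it was -0.92 and that of FN1 1.05. Over all alternatives the interaction ran from -1.47 to -0.92 for LAMA4 and from 0.56 to 1.05 for FN1. Each refit named here leaves 1 complete pair of arrays at day 7, so only its effect size is given.

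FA gave no difference that passed. Of all genes tested 0% changed with FA, and 0 of the 38 matrix genes did (limma). At an unadjusted p under 0.05 there was 1, where 0.987% of all genes tested reached this. It was FBN2, at -0.12 ± 0.05 (adjusted p = 1), lower in 4 of 4 pairs. The remaining mean differences ran from -0.21 ± 0.13 (COL14A1) to 0.11 ± 0.24 (LAMA4). For FA by day 0 passed and 6 of the 38 reached an unadjusted p under 0.05, where 12.2% of all genes tested did. COL14A1 had -0.63 ± 0.14 (adjusted p = 0.403), with FA pairs of 0.01 and 0.19 at day 7 and -0.36 and -0.70 at day 21. For ethanol by FA 0 passed and 1 reached an unadjusted p under 0.05, where 0.816% of all genes tested did. It was COL3A1, at -0.29 ± 0.11 (limma, adjusted p = 0.994). In both interaction tests 0% of all genes passed.

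The day 7 array with ethanol and without FA was also the highest of the 9 arrays for 31 of the 57 genes, or 54.4%, where this held for 26.1% of all 18417 genes. Among the dim members it was 15 of 19 (78.9%, against 47.7% of all dim genes) and among those tested 16 of 38 (42.1%, against 15.3%). Relative to the mean of the other day 7 arrays the median difference on this array was 0.15 for the 57 genes and 0.05 for all genes. Ethanol differences of the 57 genes had a median of 0.15 in the pair that holds this array and of -0.07, 0.06 and 0.00 in the others, and the part of this array in the ethanol values was not tested beyond the refits above. The calls for day were 10 higher and 8 lower without it, beside 3174 higher and 3022 lower of the 12254 genes tested.

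Several enzymes that modify and cross-link collagen were higher at day 7 than in undifferentiated cells. Of 24 processing enzymes and chaperones tested 6 rose to day 7 and 0 fell, beside 6.68% higher and 13.9% lower of all genes tested. They were P3H2 (log2 difference 1.76 ± 0.11) and P4HA1 and P4HA2 (1.55 ± 0.28 and 1.32 ± 0.23), which hydroxylate proline, PLOD2 (1.64 ± 0.19), which hydroxylates lysine, and the cross-linking oxidases LOX (1.69 ± 0.36) and LOXL2 (1.04 ± 0.25), with limma adjusted p from 0.0013 to 0.0236. Without the day 7 array without addition P4HA1, LOX and LOXL2 no longer passed (adjusted p = 0.0605, 0.0876 and 0.113), nor did LOXL2 without the day 7 array with FA alone. From day 7 to day 21, 3 rose and 10 fell, beside 26.3% and 22.6% of all genes tested. LOX fell by 1.63 ± 0.21 and LOXL2 fell by 1.50 ± 0.14 (limma, adjusted p = 0.000417 and 8.4e-05). P4HA2 fell by 0.67 ± 0.13, and PLOD2 rose by 0.40 ± 0.11 (adjusted p = 0.0183), a call lost in 3 of 16 alternatives. SERPINH1, the collagen chaperone, fell by 0.29 ± 0.06 (adjusted p = 0.00746). With ethanol 0 of the 24 passed.

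Of 24 matrix partners tested, 7 rose and 9 fell from day 7 to day 21, where 48.9% of all genes tested changed. The largest increases were FREM2 (1.84 ± 0.08), part of the Fraser complex of embryonic basement membranes, LTBP1 (1.54 ± 0.08), which tethers latent TGF-beta to microfibrils, POSTN (1.13 ± 0.13) and NID1 (1.03 ± 0.08), which links laminin to collagen IV. THBS2 and TNC fell by 1.49 ± 0.12 and 0.61 ± 0.07 (limma, adjusted p of these 6 from 1.24e-06 to 0.000272). NID1 had been 0.59 ± 0.15 lower at day 7 than in undifferentiated cells (limma, adjusted p = 0.027), when HSPG2, the basement membrane proteoglycan perlecan, was 0.36 ± 0.09 higher (adjusted p = 0.0325). These day 7 calls were lost in 2 and 6 of 14 alternatives.

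Of 14 matrix receptors tested, 0 rose and 2 fell to day 7 (6.68% and 13.9% of all genes tested), and 8 rose and 3 fell from day 7 to day 21 (26.3% and 22.6%). ITGA2, the alpha chain of a collagen receptor, rose by 3.14 ± 0.08, ITGB8 by 1.68 ± 0.08 and ITGB3 by 1.67 ± 0.10, while CD44 fell by 1.53 ± 0.11 and ITGA6, an alpha chain of laminin receptors, by 0.69 ± 0.06 (limma, adjusted p from 1.08e-07 to 3.35e-05). Of 12 proteases and inhibitors tested 5 rose and 5 fell between the days, where 48.9% of all genes tested changed. The metalloproteinase inhibitors TIMP3 and TIMP4 fell by 1.85 ± 0.16 (1.04 as the mean of all clusters of the gene) and 1.08 ± 0.07 and the protease gene ADAMTS1 rose by 0.71 ± 0.09 (limma, adjusted p from 1.11e-05 to 0.000373). TIMP4 was the only gene of these 4 lists that passed for ethanol, higher by 0.62 ± 0.07 in 4 of 4 pairs (limma, adjusted p = 0.0229). Its call was lost in 7 of 17 alternatives (adjusted p from 0.0173 to 1.00 over them), namely without terms for the other factors and without any 1 of 6 arrays: the day 7 arrays without addition and with FA alone, and each of the 4 day 21 arrays. With FA none of the genes in the 4 lists passed.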

How the data were processed

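The table holds 33297 transcript clusters on 9 arrays. The authors deposited log2 values. Per the submitters' processing notes they come from RMA, run in version 1.3.1 of Affymetrix Expression Console. The log base was inferred from the values, which lie between 2.49 and 14.3. RMA gives all arrays a like distribution, which hides any shift common to most genes and shrinks differences of dim ones. No source used here gives the build of the authors' annotation.

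Genes were named from 19460 clusters with 1 symbol in GEO's platform annotation, using the cluster with the highest mean. Of the 57 genes only COL11A2 had several. A gene was tested where its highest value exceeded the median of all values, which left 12254 genes.

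The additive model (lmFit and eBayes, limma 3.58.1 in R 4.3.3, statmod 1.5.0 for the robust variant) had terms for ethanol, FA, day and the undifferentiated array, 4 residual degrees of freedom (3 with an interaction) and Benjamini-Hochberg adjustment over all genes tested, threshold 0.05. Differentiation is the fitted level without additions minus the undifferentiated array, whose variance was taken from the rest. Precision is limited by having 9 arrays. The fit was tested on simulated data. Alternatives changed the filter, the cluster rule, the centring, the variance moderation, the terms and the arrays.

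Members, classes and the 4 related lists were chosen with earlier results of these data known. Up to 6 members per direction and effect were chosen by the largest differences among those that passed (for day, ethanol and FA, also of 1 sign over the 4 pairs). Where under 3 passed, the 3 largest of 1 sign over all pairs were taken. The chosen members are given with values on every array, with some exceptions. COL4A6, LAMB2, LAMA5, COL18A1 and LAMA2 are given with ranges over the embryoid body arrays, and COL13A1 and COL23A1 by their differences only. LAMA1, COL1A1, COL5A1, COL2A1 and other members outside this rule were named after their values were seen.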

Additional observations from a re-analysis of the deposited data

How the results depend on the processing

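With 1 array per condition the residual also holds any true interaction, and small differences of genes near the filter are the least certain. Among the members that passed and the 28 named differences of other genes, none changed sign under any alternative. Differences near 0, such as those of COL5A1 and FN1 between the days, were not followed through the alternatives. Of the members that passed, 1 of 5 for day 7, 10 of 13 for day 21 and 13 of 22 for day 21 against day 7 kept the call in every alternative. Leaving out each array in turn gave 1 to 6 members for day 7 against undifferentiated cells (main value 5; lowest without the day 7 array without addition), 10 to 19 for day 21 (main value 13) and 13 to 29 for day (main value 22; lowest without the day 7 FA array, highest without the day 7 array with both additions). It gave 0 to 1 for ethanol and 0 to 2 for ethanol by day, and 0 throughout for FA and the other interactions. Averaging both days gave 9 members for differentiation, beside 3449 of the 12254 genes tested. The left-out arrays moved the whole table too. Among all genes tested they gave 540 to 3833 calls for day 7, 3383 to 5842 for day 21 and 4437 to 6982 for day. Each lowest count came without the same array as for the members. A refit of ethanol by day without an embryoid body array leaves 1 complete pair at that array's day, so its counts decide nothing. Over all genes, ethanol calls ran from 0 to 212 when 1 array was left out and numbered 84 in the main analysis, 43 with arrays centred on the median of the named genes and 54 without the filter. Of 28 named differences of enzymes, partners, receptors and proteases 21 kept the call in every alternative. The alternatives for these genes, the centring on named genes and the left-out arrays for interactions were chosen after seeing the data. A fit with the matched pairs of arrays as a block gave 19 members for day and 0 for ethanol and for FA. Over all genes tested this fit called 5585 for day, 126 for ethanol and 0 for FA. Replicate numbers could not pair arrays, since the labels carry none.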
